A study of Mus musculus with 6 samples.

Results

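The mitochondrial ribosomal proteins were followed in the left ventricle of mice labelled MURC knockout or wild type. They were taken as the genes whose platform symbol is Mrpl or Mrps followed by a number. There were 77 such genes among 19938 genes named by the annotation, 48 with large subunit symbols and 29 with small subunit symbols. They were carried by 85 of 35556 probe sets, and for the 8 genes with more than 1 probe set the one with the highest mean over the 6 arrays stood for the gene. RefSeq holds 78 protein-coding genes with such names, and Mrpl53, whose probe set carried 2 symbols, was not analysed here. Both groups were male C57BL/6 mice, 3 arrays labelled MURC knockout (11, 11 and 13 weeks old) and 3 labelled wild type (13, 13 and 12 weeks old). Each array held biotin-labelled total RNA of the left ventricle, and the labels do not give how the knockout was made or state that each sample came from a separate animal. The p-values therefore describe how far these samples scatter, which may be technical. The gene for MURC is Cavin4, and its product coats caveolae, pits in the surface membrane of muscle cells.

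Mitochondrial ribosomes translate the few messenger RNAs of the mitochondrial genome, which encode membrane subunits of the respiratory chain and of ATP synthase. Their small subunit reads the message, their large subunit joins amino acids and releases the chain through an exit tunnel at the inner membrane, and all their proteins are encoded in the nucleus. Part of these proteins have counterparts in bacterial ribosomes and the rest are specific to mitochondria. The human counterparts of Mrpl3, Mrpl44 and Mrps22 are known as genes of inherited cardiomyopathy.

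Before the members were compared, the arrays were checked against their labels. On the log2 scale, Cavin4 measured 5.38, 5.74 and 5.59 in the arrays labelled knockout, against wild-type readings of 8.75, 8.62 and 8.07. The 7 heart muscle markers lay between 11.54 and 13.15. Knockout replicate 2 stood apart in the atrial genes Myl7 and Myl4, at 7.22 and 8.67, where the other 5 arrays read 3.61 to 4.11 and 5.41 to 5.61. The smooth muscle list was higher in the knockout at 3 of 3 genes, and its summed signal ranged from 9.07 to 9.11 in the knockout and from 8.71 to 9.09 in the wild type. The leukocyte list was lower at 4 of 4 genes, with summed signals of 8.16 to 8.35 against 8.22 to 8.68. Summed signals of the 4 endothelial and 4 fibroblast genes overlapped, and their knockout minus wild-type differences were 0.01 and -0.04. Of the fat cell markers, Adipoq read 2.72 to 3.32, under the filter at 3.45, and Plin1 read 3.67 to 4.36 with a difference of -0.23. Wild-type replicate 1 was brighter as a whole, with a median deviation of 0.073 over all named genes from each gene's own mean, against -0.028 to 0.003 in the other arrays. The part of these differences in the results that follow was not tested, and the main counts are also given with knockout replicate 2 or wild-type replicate 1 left out. In whole tissue, fewer cells of a type and less RNA per cell cannot be told apart.

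The mitochondrial ribosomal protein genes differed between genotypes in both directions, with Mrpl22 the highest at 1.42-fold above the wild type and Mrpl45 the lowest at 1.36-fold below it. All 77 passed the filter on dim probe sets. Of these, 43 measured above the wild type, 33 below it and 1, Mrpl27, at the same mean before rounding. Mrpl39, Mrpl40, Mrps28 and Mrps34 also differed by 0.00 after rounding. The median log2 change over all members was 0.01, with a middle range from -0.11 to 0.15. The majority above the wild type depended on single arrays, with 34 above and 43 below without knockout replicate 1 and 38 above and 39 below without wild-type replicate 3. Over 15298 named genes, 36.3% measured above the wild type and the median was -0.04. None of the 77 passed limma with Benjamini-Hochberg adjustment over all 24898 probe sets, where 1 probe set, that of Cavin4, did. That is 0.00402% of probe sets, 0.00654% of named genes and 0.0131% of the named genes at least as bright as the dimmest member. At an unadjusted p under 0.05, 11 members measured higher and 10 lower, which is 14.3% and 13% of the members and 27.3% together. In either direction the share was 13.7% of all probe sets, 11.5% of named genes and 17.5% of the brighter named genes. Among all named genes these shares were 2.5% and 8.97%, among all probe sets 4.71% and 9.02%, and among the 7624 named genes at least as bright as the dimmest member 3.91% and 13.6%. The share of lower members was near that of the brighter named genes, and the share of higher members was larger than in each of these backgrounds.

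The balance between higher and lower members depended on the scaling and on single arrays. After quantile normalization 21 members measured higher and 8 lower at an unadjusted p under 0.05, where all named genes gave 4.63% and 6.81%. After centring each array on its median the counts were 16 and 7, against 3.44% and 7.03% of named genes. Without wild-type replicate 1 they were 17 and 6, against 3.82% and 6.06% of named genes. Without wild-type replicate 2 they were 7 and 7, or 9.09% of members each, against 1.84% and 7.81%. Without knockout replicate 3 they were 9 and 3, and the lower share of 3.9% lay under the 5.35% of named genes, while the higher share was 11.7% against 1.58%. With each of the 6 arrays left out in turn, Mrpl13, Mrpl20, Mrpl22, Mrpl28, Mrpl34, Mrpl38, Mrpl41, Mrpl45 and Mrps9 kept an unadjusted p under 0.05. The other 12 of the 21 lost it at least once. Mrpl41 kept it at the brighter of its probe sets. Without knockout replicate 2, the array with atrial transcripts, 10 members measured higher and 7 lower, against 2.18% and 7.28% of named genes, and 16 of the 21 members named here were among them. When only annotated probe sets were tested, 26 members had an unadjusted p under 0.05 (33.8%), all 21 among them, where 13.8% of named genes did, and Mrpl22 alone passed the adjusted threshold (adjusted p = 0.0369 in limma). Mrpl22 ranged from that value to 0.322 over its 16 alternatives.

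**Figure D1:**
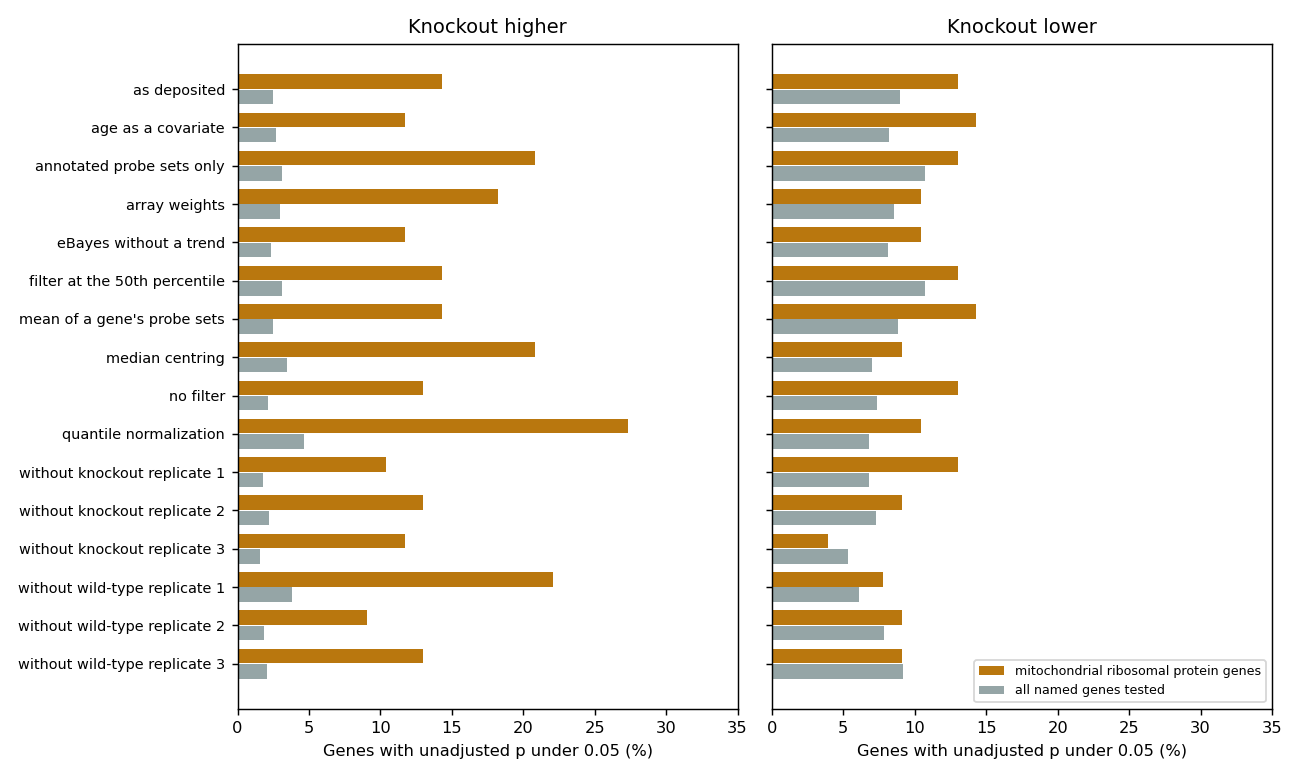
Share of genes with an unadjusted p under 0.05 in limma, in percent, for the 77 mitochondrial ribosomal protein genes (brown) and all named genes tested (grey), higher in the knockout on the left and lower on the right, under 16 settings. Higher members make up 9.09% to 27.3% of the members against 1.58% to 4.63% of all named genes, while lower members make up 3.9% to 14.3% against 5.35% to 10.7% and lie under the share of all named genes without knockout replicate 3 (3.9% against 5.35%) and without wild-type replicate 3 (9.09% against 9.14%). A fit with replicate number as a block is not drawn. It gave 18.2% higher and 15.6% lower members, against 2.21% and 7.99% of all named genes.

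The sequences just upstream of the start sites are shown for 5 members, those with the largest change in each direction (Mrpl22 and Mrpl45), 2 with motifs (Mrpl43 and Mrpl9) and Mrpl50, which lies near the targeted gene. Each is the 120 bases before the start site from RefSeq on GRCm38.p6, read 5′ to 3′ on the strand of the gene, with motif matches in capitals.
Mrpl22 (chr11:58171544-58171663, strand +): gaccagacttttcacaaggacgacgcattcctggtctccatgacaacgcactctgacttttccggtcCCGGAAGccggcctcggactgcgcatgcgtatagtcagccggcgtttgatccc
Mrpl45 (chr11:97315596-97315715, strand +): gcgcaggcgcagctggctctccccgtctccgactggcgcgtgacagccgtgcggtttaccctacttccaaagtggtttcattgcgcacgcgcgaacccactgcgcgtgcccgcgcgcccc
Mrpl43 (chr19:45006443-45006562, strand -): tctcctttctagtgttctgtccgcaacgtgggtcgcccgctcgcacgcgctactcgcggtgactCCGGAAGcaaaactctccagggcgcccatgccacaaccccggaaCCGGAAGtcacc
Mrpl9 (chr3:94443216-94443335, strand +): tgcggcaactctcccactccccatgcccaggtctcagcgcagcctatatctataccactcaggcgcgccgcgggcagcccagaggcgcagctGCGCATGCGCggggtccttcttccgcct
Mrpl50 (chr4:49521084-49521203, strand -): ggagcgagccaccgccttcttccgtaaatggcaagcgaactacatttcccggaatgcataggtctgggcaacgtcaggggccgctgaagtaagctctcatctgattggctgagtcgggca
The motifs searched, on both strands and over 250 bases before and 50 bases after the start, were CCGGAAG, bound by ETS factors such as GABP and AAGATGGC, bound by YY1, together with the palindrome bound by NRF1, whose letters are the capitals in the Mrpl9 sequence. These factors are known regulators of nuclear genes for mitochondria. RefSeq gave 74 such windows for 68 of the 77 members. The ETS motif stood in 33.8% of member windows, against 11.6% of 21263 windows of protein-coding genes and 8.86% of all 32851 windows. The YY1 motif stood in 16.2% against 3.05% and 2.75%, and the NRF1 motif in 4.05% against 1.33% and 0.971%. Member windows also held more CpG pairs, with a median of 21 against 13 in protein-coding genes and 7 in all windows, and the ETS and NRF1 motifs contain CpG. Among members with an unadjusted p under 0.05, the ETS motif stood in 2 of 10 windows of higher genes and in 3 of 9 windows of lower genes, and the YY1 motif in 0 of 10 and 2 of 9. In the windows shown above, Mrpl43, which measured lower, held the ETS motif 2 times and Mrpl22, which measured higher, held it 1 time.

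Proteins of the large subunit with bacterial counterparts, 29 of the 77 members, supplied 6 of the 11 higher genes. In this class 6 measured higher and 3 lower at an unadjusted p under 0.05, where 3.91% and 13.6% of the brighter named genes did. Whether the classes differ was not tested. Mrpl22, a protein that lines the exit tunnel, had the largest change of all members. Its log2 signal was 6.24, 6.31 and 6.25 in knockout arrays and 5.53, 5.94 and 5.82 in wild-type arrays, so every knockout array lay above every wild-type array. The difference was 0.50 (SE 0.11), and its adjusted p in limma was 0.123. It was 0.39 without wild-type replicate 1, which had the lowest reading. Mrpl13, a core protein of the large subunit, read 7.47, 7.35 and 7.45 against 7.26, 6.85 and 7.02. The genotypes did not overlap, and the difference was 0.38 (SE 0.11, limma adjusted p = 0.201).

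Mrpl20, which in bacteria is an early protein in building the large subunit, read 7.02, 6.85 and 6.96 against 6.76, 6.67 and 6.48, a difference of 0.31. Mrpl28, an RNA-binding protein of the same subunit, read 7.03, 6.89 and 7.14 against 6.77, 6.73 and 6.64, also 0.31. Both were higher in every knockout array than in any wild-type array, with adjusted p of 0.23 and 0.195 in limma. Mrpl14, at the face that meets the small subunit, read 7.13, 6.95 and 7.11 against 6.73, 6.72 and 6.95 and touched the wild type at 1 value. Mrpl24, next to the tunnel exit, read 8.23, 8.19 and 8.21 against 8.16, 7.94 and 7.97, the smallest of these differences at 0.19. Among the mitochondria-specific proteins of the large subunit, Mrpl41 was the 1 gene that measured higher at an unadjusted p under 0.05. It read 8.38, 8.12 and 8.34 against 7.94, 7.92 and 8.02, a difference of 0.32. A second Mrpl41 probe set, dimmer by 1.82 to 2.36, measured only 0.05, and the mean of both gave 0.19 with an unadjusted limma p of 0.0858.

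In the small subunit 4 genes measured higher at an unadjusted p under 0.05. Mrps9, a protein of the head of the subunit, read 7.81, 7.66 and 7.85 against 7.47, 7.42 and 7.51, without overlap. The difference was 0.31 (SE 0.07, limma adjusted p = 0.14), and it kept an unadjusted p under 0.05 with each of the 6 arrays left out. Mrps14, also of the head, read 6.70, 6.89 and 6.70 against 6.20, 6.48 and 6.55, a difference of 0.35. Mrps25, a mitochondria-specific protein, read 6.61, 6.60 and 6.76 against 6.47, 6.31 and 6.44, a difference of 0.25. The genotypes did not overlap at either gene. Mrps18c is 1 of 3 related genes of this subunit family, and it read 7.09, 6.74 and 7.03 against 6.86, 6.45 and 6.60. Its genotypes overlapped, and its relatives Mrps18a and Mrps18b measured 0.09 and 0.06 against 0.32 for Mrps18c. Whether the 3 relatives differ in change was not tested.

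Mitochondria-specific proteins of the large subunit, 19 of the 77 members, supplied 6 of the 10 lower genes and 1 higher gene. Of the brighter named genes 13.6% measured lower and 3.91% higher at an unadjusted p under 0.05. Mrpl45, which holds the ribosome at the inner membrane beside the tunnel exit, had the largest lower change. It read 6.73, 6.72 and 6.45 against 7.12, 6.91 and 7.21, without overlap. The difference was -0.45 (SE 0.11), its adjusted p in limma was 0.155, and it lay between -0.60 and -0.36 over all alternatives. Mrpl38, of the central protuberance at the top of the large subunit, read 7.20, 7.26 and 7.17 against 7.48, 7.47 and 7.38, a difference of -0.23 (SE 0.07). Mrpl37 read 7.82, 7.76 and 7.58 against 8.06, 7.88 and 7.97, a difference of -0.25. Mrpl43 read 6.71, 6.67 and 6.52 against 6.91, 6.82 and 6.85, a difference of -0.23. Mrpl49 read 7.29, 7.35 and 7.32 against 7.38, 7.65 and 7.57, a difference of -0.21. At each of these genes the knockout arrays lay below every wild-type array.

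Mrpl50, the sixth of these genes, lies on the same chromosome as Cavin4 with 4 protein-coding genes between them, and it was the 1 measured member within 10 Mb of Cavin4. It read 7.99, 7.77 and 7.71 against 8.17, 7.97 and 8.03, and knockout replicate 1 overlapped the wild type. The difference was -0.23 (SE 0.09, limma adjusted p = 0.336), with an unadjusted limma p of 0.0394. That p was 0.111 without knockout replicate 2, 0.125 without knockout replicate 3, 0.115 without wild-type replicate 1 and 0.0624 without wild-type replicate 3. Zfp189, the next gene beyond it, measured -0.04. Of the genes between, Plppr1, Acnat2 and Acnat1 were dim, at 3.17 to 4.21, and measured 0.11, 0.05 and -0.25, and Baat was under the filter.

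Of the proteins with bacterial counterparts, 4 measured lower at an unadjusted p under 0.05. Mrpl34, a small RNA-binding protein, read 7.46, 7.32 and 7.05 against 7.69, 7.54 and 7.64, a difference of -0.35. Mrpl10, which forms the base of the stalk that recruits translation factors, read 8.25, 8.23 and 7.90 against 8.34, 8.40 and 8.49, a difference of -0.28. Mrpl33 read 6.14, 6.06 and 5.82 against 6.42, 6.25 and 6.19, also -0.28. The genotypes did not overlap at these genes. Mrps17, the 1 lower gene of the small subunit, read 6.07, 6.16 and 5.91 against 6.26, 6.31 and 6.34, a difference of -0.26, without overlap. Knockout replicate 3 was the lowest knockout array at 9 of the 10 lower genes. Knockout replicate 2 was the lowest knockout array at 9 of the 11 higher genes, so the size of the differences varied among the knockout arrays in both directions.

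**Figure D2:**
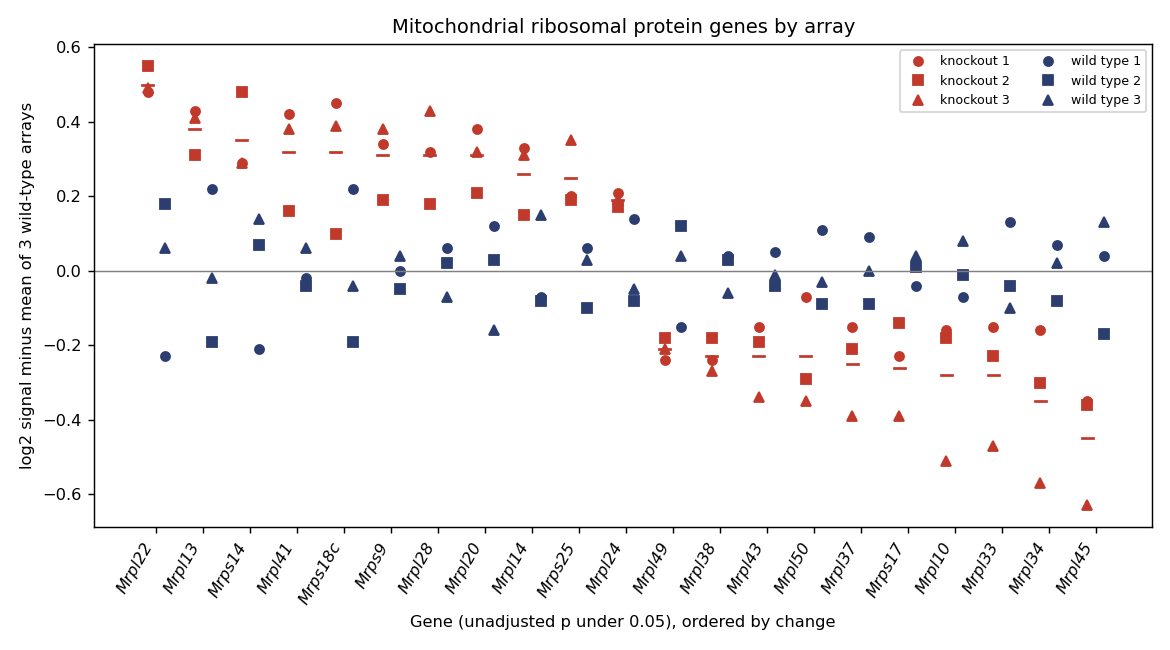
Log2 signal of each array minus the mean of the 3 wild-type arrays, for the 21 members with an unadjusted p under 0.05 in limma, ordered by change. Red symbols are knockout arrays, blue symbols wild-type arrays, and the short red line is the knockout mean, which runs from 0.50 at Mrpl22 to -0.45 at Mrpl45; red and blue symbols overlap at Mrpl14, Mrps18c and Mrpl50.

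A further 8 members did not overlap between genotypes although their unadjusted p was not under 0.05. Mrps31, Mrps33 and Mrpl36 were above the wild type by 0.18, 0.17 and 0.15, and Mrpl4, Mrps7, Mrpl52, Mrpl16 and Mrpl51 were below it, from -0.16 at Mrpl4, Mrps7 and Mrpl52 to -0.11 at Mrpl51. In all, 12 members lay wholly above and 14 wholly below the wild type, 15.6% and 18.2% of the members and 33.8% together. In either direction the share was 19% of all probe sets, 18.7% of named genes and 24.8% of the brighter named genes. These shares were 4.64% and 14.1% among all named genes, 6.22% and 18.6% among genes at least as bright as the dimmest member, and 6.12% and 12.9% among all probe sets. Without wild-type replicate 1 the members wholly above were 22, without knockout replicate 2 they were 20, and after quantile normalization 22. A group of 2 arrays separates from the other more readily than a group of 3. After median centring the members wholly below were 8. The shares of all named genes wholly above or below were not counted under these settings, so these numbers are not a result about the members.

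The subunits differed in the middle of their changes by less than the members of either differed among themselves. The large subunit had 23 genes above and 24 below the wild type with a median of 0.00, and the small subunit had 20 above and 9 below with a median of 0.05. The middle ranges, from -0.14 to 0.15 and from -0.03 to 0.17, overlapped over most of their length. Without knockout replicate 1 the small subunit median was -0.01, and the gap between subunits was 0.01. Set against the wild-type mean, small subunit genes were above it at 23 of 29 genes in knockout replicate 1, 17 in replicate 2 and 15 in replicate 3, and large subunit genes at 27, 23 and 20 of 48. Mrps30 and Mrps18a are named for the small subunit but known as proteins of the large one, and Mrps36 is known as a subunit of a dehydrogenase complex. With the first pair moved and Mrps36 left out, the gap stayed at 0.05.

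Within the large subunit, the mitochondria-specific proteins had a median change of -0.11 and those with bacterial counterparts one of 0.04. Of 19 mitochondria-specific genes 12 measured below the wild type, and of 29 with bacterial counterparts 12 did. In the small subunit the order was the other way, with medians of 0.08 over 11 mitochondria-specific genes and 0.01 over 18 with counterparts. These classes go by symbol. The first therefore includes Mrps30 and Mrps36, at -0.06 and 0.13, and the second includes Mrps18a, at 0.09. Class medians without these genes were not computed. The 7 proteins at the rim of the exit tunnel had a median of 0.00 and held both extremes, Mrpl22 and Mrpl45. The 8 proteins of the central protuberance had a median of -0.02, and of these Mrpl38 alone had an unadjusted p under 0.05. In the stalk, Mrpl11 measured 0.19, Mrpl12 -0.05 and Mrpl10 -0.28.

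**Figure D3:**
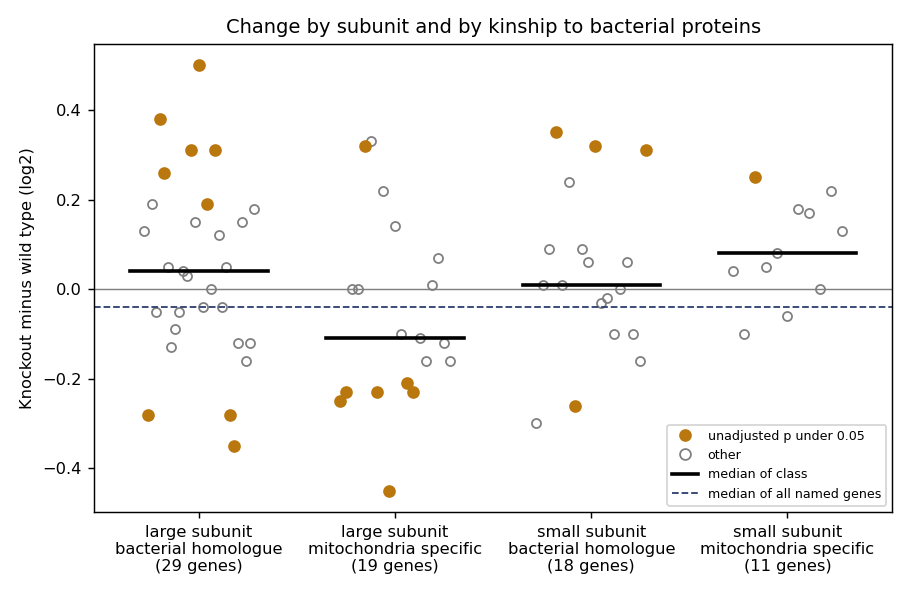
Log2 change, knockout minus wild type, of each of the 77 members, by subunit symbol and by whether the protein has a bacterial counterpart. Brown points have an unadjusted p under 0.05 in limma, black lines are class medians (0.04, -0.11, 0.01 and 0.08 from left to right), and the dashed line is the median of all named genes at -0.04.

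The members were among the brighter probe sets. Their mean log2 signals ran from 5.86 to 9.69 with a median of 7.38, and the dimmest member, Mrps36, lay beside the median of all named genes tested, 5.85. The large subunit had a median of 7.40 and the small subunit one of 7.23, within middle ranges of 6.92 to 8.10 and 6.65 to 7.96. The brightest large subunit probe sets were those of Mrpl18 at 9.69, Mrpl30 at 9.56, Mrpl39 at 9.31 and Mrpl12 at 8.89, and the dimmest those of Mrpl22 at 6.02, Mrpl33 at 6.15, Mrpl47 at 6.17 and Mrpl57 at 6.18. In the small subunit Mrps15, Mrps21, Mrps23 and Mrps33 read 8.91, 8.84, 8.79 and 8.59, and Mrps36, Mrps11, Mrps17 and Mrps26 read 5.86, 5.89, 6.17 and 6.18. Probe sets differ in how well they bind their target, so these signals do not order the transcripts by abundance. Of the 8 brightest named here, none had an unadjusted p under 0.05, and Mrps33 had the smallest at 0.0522 (limma).

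**Figure D4:**
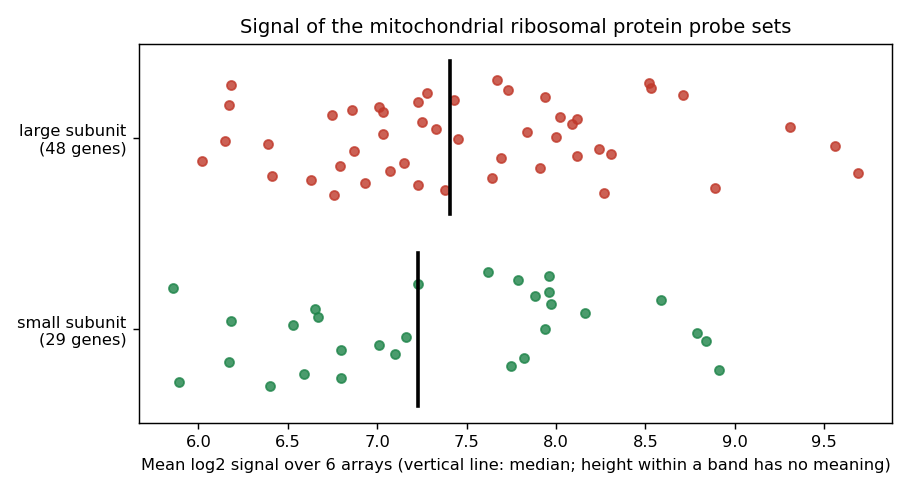
Mean log2 signal over the 6 arrays of each member's probe set, large subunit above and small subunit below, with the median of each as a vertical line. The 48 large subunit probe sets run from 6.02 to 9.69 and the 29 small subunit probe sets from 5.86 to 8.91, with medians at 7.40 and 7.23.

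Replicates of a genotype differed by a median of 0.18 between the highest and the lowest array, in the knockout as in the wild type. The widest range was that of Mrpl42 in the wild type, 7.30, 8.17 and 8.09, against 8.36, 8.02 and 8.17 in the knockout. Its difference of 0.33 rested on that 1 low array and had an unadjusted limma p of 0.179. Mrps10 spread from 6.23 to 6.72 in the wild type and from 6.12 to 6.49 in the knockout, and its difference of -0.30 had an unadjusted limma p of 0.104. At the other end, 31 members differed by at most 0.1 between genotypes. Among them were Mrpl18 of the central protuberance, Mrpl12 of the stalk and the cardiomyopathy gene Mrps22 at 0.04. The other cardiomyopathy genes named above, Mrpl44 and Mrpl3, measured 0.22 and 0.12, with unadjusted limma p of 0.0707 and 0.14.

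For 8 members a second probe set could be read. Those of Mrpl23, Mrps33 and Mrps36 kept a nearly fixed distance from the first on all arrays, 0.09 to 0.12, 0.24 to 0.28 and 0.34 to 0.44, and are not separate evidence. Both probe sets of Mrpl51 lay below the wild type without overlap, by -0.11 and -0.19. The second probe set of Mrps5 read 7.09, 7.03 and 7.17 against 6.88, 6.93 and 6.72, above the wild type by 0.25, where the first measured 0.06. Those of Mrpl27 differed by 2.75 to 3.30 in signal and measured 0.00 and -0.16. RefSeq lists 6 pseudogenes named after members, of Mrpl23, Mrpl27, Mrpl48 and Mrps36. Signals of such copies and of the genes cannot be told apart here. The probe sets of Mrpl41 measured 0.32 and 0.05, and which of them reads the gene could not be settled from the sources used here.

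The other genes of mitochondrial translation were taken from lists by role. The 4 measured mitoribosome proteins with other symbols, Dap3, Ptcd3, Chchd1 and Gadd45gip1, were all slightly above the wild type, by 0.02 to 0.08, with 0 at an unadjusted p under 0.05 in limma. Of 14 measured translation factors 11 were above the wild type, and 3 measured higher and 2 lower at an unadjusted p under 0.05. Among all named genes 36.3% were above it, and 2.5% measured higher and 8.97% lower at that p. Tufm, the elongation factor that brings transfer RNA to the ribosome, read 8.82, 8.80 and 8.77 against 8.54, 8.58 and 8.53, higher by 0.25 without overlap (SE 0.05, limma adjusted p = 0.12). Slirp, which protects mitochondrial messenger RNA, measured 0.29 higher. Mrrf, the ribosome recycling factor, read 8.28, 8.41 and 7.99 against 8.74, 8.55 and 8.52, a difference of -0.38 without overlap.

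Among 24 assembly factors of the mitoribosome, 17 measured lower than in wild type, where 62.7% of all named genes did, and the median change was -0.04 in both. At an unadjusted p under 0.05, 0 were higher and 2 lower, against 2.5% and 8.97% of all named genes. Eral1, a chaperone of small subunit ribosomal RNA, read 6.04, 5.89 and 5.87 against 6.27, 6.44 and 6.35, a difference of -0.42 (SE 0.09, limma adjusted p = 0.112). Noa1, a GTPase of assembly, measured -0.24 and Fastkd2, an RNA-binding assembly factor, -0.20. Among 7 measured genes of mitochondrial transcription and replication, Tfb2m, a transcription factor of mitochondrial DNA, measured -0.31 without overlap, while Polg and Twnk, of DNA replication, measured 0.16 and 0.12. The 19 measured tRNA synthetases and amidotransferase subunits held 1 higher and 3 lower genes at an unadjusted p under 0.05, and a median of -0.04. The shares of all named genes were again 2.5% and 8.97%. Gatc, a subunit of the enzyme that makes glutaminyl transfer RNA, read 8.13, 8.31 and 7.94 against 8.79, 8.79 and 8.70, a difference of -0.63 without overlap (SE 0.10, limma adjusted p = 0.0614). It was larger than that of any mitochondrial ribosomal protein. Tars2 and Iars2, which charge threonine and isoleucine transfer RNA, measured 0.24 and -0.31. RNAs encoded by mitochondrial DNA were not analysed here.

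As families, complex I subunits and cytosolic ribosomal proteins were set beside the members. Complex I subunits of the nuclear genome measured higher at 24 of 34 genes with a median of 0.11, and 10 were higher and 4 lower at an unadjusted p under 0.05. The 56 cytosolic ribosomal proteins had a median of 0.00, with 3 higher and 8 lower. Among all named genes 36.3% measured above the wild type, and 2.5% were higher and 8.97% lower at that p. The SD of the changes was 0.19 over the mitochondrial ribosomal proteins, 0.16 over each of these families and 0.15 over all named genes. Whether the families differ was not tested.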

How the data were processed

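The deposited table holds log2 signals of 35556 probe sets on 6 arrays, with values as the authors processed them. MAS5 is named in the submitters' processing notes without its role. How probes were summarized, background-corrected and scaled, and the array's build, were not given in the sources used here. That the deposited values are log2 was read from their range. The values were used as deposited. Probe sets were named from the platform annotation, which gave 1 symbol to 21789, several to 1621 and did not list 12146. RefSeq symbols of GRCm38.p6 matched all 77 members. The genotypes were set against each other with limma 3.58.1 under R 4.3.3 (two-sided, lmFit and a trended eBayes) over the 24898 probe sets with a mean at or above the 30th percentile, a log2 value of 3.45, with Benjamini-Hochberg adjustment over all of them and a threshold of 0.05. SE is limma's moderated standard error, and the number of arrays limits the precision. The method was tested on simulated data. Genes named are the members with an unadjusted p under 0.05 (the rule asked for the 8 smallest per direction, and the rest were added after their values were seen, as were Mrpl42, Mrps10 and the members apart without overlap), the brightest and dimmest 4 per subunit, Mrpl50, the Mrps18 relatives and the 3 genes with the smallest p per list. The rule also asked for members whose probe sets differ in sign, and there were none. Those with several probe sets were therefore named after their values were seen, as were genes named by role or region (Mrpl11, Mrps22, Mrpl3, Mrpl44). The members, lists and tests were chosen with earlier results of these data known. Motif matches are exact.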

Additional observations from a re-analysis of the deposited data

How the results depend on the processing

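The 21 named members kept their direction under all 16 alternatives, but this is no separate support. They were chosen by their p in these same arrays, and 18 of them did not overlap between genotypes. Such a gene cannot change direction when 1 array is left out. Changes of the filter or of the trend leave the difference itself as it was. Members past the adjusted threshold were 0 in limma as deposited, with 21 at an unadjusted p under 0.05, and 0 in each alternative but the test of annotated probe sets only, which gave 1. Over the alternatives, 12 (without knockout replicate 3) to 29 (quantile normalization) members had an unadjusted p under 0.05. These are 15.6% and 37.7% of the members, where 6.93% and 11.4% of named genes were called. Probe sets past the adjusted threshold numbered 1 as deposited, 34 with age as a covariate, 361 among annotated probe sets only, 126 with array weights, 48 with the filter at the 50th percentile, 105 after median centring, 130 after quantile normalization, and 0 to 11 with 1 array left out. Quantile normalization gave 21 higher members (27.3%) at an unadjusted p under 0.05, against 4.63% of named genes. It gave 22 wholly above the wild type, and median centring gave 8 wholly below. With 1 array left out, higher members numbered 7 to 17, or 9.09% to 22.1%, against 1.58% to 3.82% of named genes. Lower members numbered 3 to 10, or 3.9% to 13%, against 5.35% to 9.14%. Those wholly above numbered 13 to 22 and those wholly below 14 to 21. Shares of all named genes wholly above or below were not counted in these alternatives. With 1 array left out, the small subunit median ran from -0.01 to 0.06, and the gap between subunits from 0.01 to 0.07. Adjusting for age gave a gap of 0.04, and averaging the probe sets of each gene gave 0.08. With age as a covariate 20 members (26%) had an unadjusted p under 0.05 in limma, where 10.9% of named genes did. Of the 21, 16 were among them, and Mrpl14, Mrpl24, Mrpl49, Mrps14 and Mrps18c were not. Ages were not balanced between the genotypes, so age and genotype cannot be fully told apart. The causes were not tested. Replicate numbers are shared between genotypes, and over all tested probe sets the deviations of same-numbered arrays correlated at -0.059, 0.021 and -0.057. Among the members, however, replicate 1 was the highest array at 47 of 77 genes in the knockout and at 50 in the wild type. Whether same-numbered arrays were handled together is not given by the labels and was not tested. With the replicate block 26 members (33.8%) had an unadjusted p under 0.05, all 21 among them, where 10.2% of named genes did. In that fit 0 probe sets passed the adjusted threshold. Background correction and slide could not be varied, since scanner files were not used here. Arrays limit precision, as the median SE of a member was 0.08.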
